A study of Arabidopsis thaliana with 8 samples.

Results

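The serine carboxypeptidase-like (SCPL) genes of Arabidopsis were followed in leaves of plants that overexpress VaNAC26, a stress-responsive NAC transcription factor gene of the wild grapevine Vitis amurensis, and of wild type (WT) Col-0. A probe set was taken as a member where the platform annotation gave it a single gene symbol that is SCPL followed by a number, in upper or lower case. This rule found 29 genes, each with 1 probe set, among 22746 probe sets tested on the Affymetrix ATH1 array, a chip on which several short probes together report a transcript. All 29 lay on probe sets whose name ends in a plain _at, the ending that Affymetrix gave to sets designed for 1 transcript. RefSeq names 51 Arabidopsis genes of the family by number. The members start at SCPL16, and the sinapoyltransferase genes SNG1 and SNG2 and the brassinosteroid gene BRS1, which also belong to the family, are not among them.

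The samples were OE 5d and WT 5d, leaves taken 5 d after the last irrigation, and OE 0d and WT 0d, leaves taken before drought, each on 2 arrays and 8 in all. Plants had grown in soil for 21 d before water was withheld. The transgene was driven by the CaMV 35S promoter, which is active in most tissues, and leaves of 3 independent lines were pooled in each OE sample, so that differences between lines cannot be seen. No array held leaves of plants kept watered until 5 d, and a difference between 5 d and 0 d cannot be told apart from one of plant age or sampling day. Whether replicates were separate plants is not stated, and p-values therefore reflect the spread between these samples alone, which may be technical. In whole leaves, fewer cells of a type and less RNA per cell cannot be told apart.

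SCPL proteins belong to a family of secreted and vacuolar enzymes built like serine carboxypeptidases, which cut amino acids from the C-terminal end of proteins with a serine, an aspartate and a histidine in the active site. Plants use one branch of the family for a different reaction. Its members, such as SNG1 and SNG2, move acyl groups like sinapate from glucose esters to malate or choline, while other members keep peptidase activity, such as the vacuolar carboxypeptidase Y. BRS1, from the peptidase branch, acts upstream of the brassinosteroid receptor BRI1.

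Values are normalized intensities in linear units, as deposited. Array medians lay between 36.2 and 38.2, and 47% to 48.1% of the probe sets of an array were under 32, a limit set here below which values were taken as close to background. The leaf markers RCA and PRK encode Rubisco activase and phosphoribulokinase and were the 2 genes with a named probe set out of 9 listed. They were bright on every array, at 6990 to 9860 and 1860 to 4600. Both were lowest on OE 5d replicate 1, where PRK was at 1860 against 4070 on replicate 2. The pair of OE 5d arrays was more than 2-fold apart for 1294 probe sets, against 143 for WT 5d, 79 for OE 0d and 87 for WT 0d. Log2 intensities of all 8 arrays were fitted together with limma, and the words rose and fell are kept for genes whose p-value, adjusted over all probe sets, was under 0.05.

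**Figure D1:**
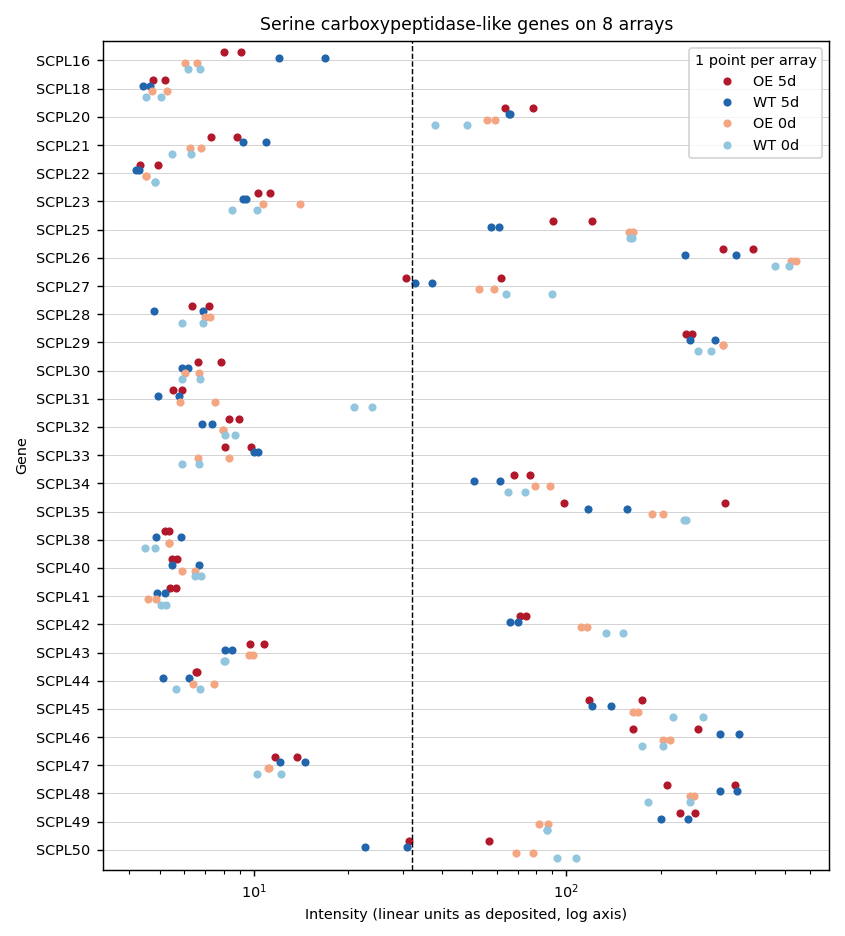
Intensity of the 29 serine carboxypeptidase-like genes on each of the 8 arrays (log axis), with 1 point per array and the dashed line at 32. For 16 genes all arrays lie under 32 and for 11 all arrays lie at or above it, and levels of different genes cannot be set against each other on this chip.

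Of the 29 genes, 16 were under 32 on all arrays, 11 were at or above 32 on all arrays, and SCPL27 and SCPL50 crossed the limit. The genes lie on all 5 chromosomes, with 6 on chromosome 1, 7 on chromosome 2, 8 on chromosome 3, 3 on chromosome 4 and 5 on chromosome 5. In 2 pairs of members that are next to each other in the gene order, SCPL22 with SCPL23 and SCPL26 with SCPL28, only SCPL26 was above 32 on any array. SCPL42 was above 32 on every array, and SCPL41, which is 3 genes away from it, was on none. Arabidopsis SCPL41 has been described as affecting membrane lipid metabolism, and its intensities here ran from 4.57 to 5.63.

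After 5 d without water, 3 of the 29 genes had changed in the OE lines (10.3%), SCPL49, which encodes carboxypeptidase Y, higher and SCPL42 and SCPL25 lower. The background for this comparison was 13.6% of all probe sets, with 7.06% higher and 6.53% lower. In WT 13 of the 29 genes had changed (44.8%), 6 of them higher and 7 lower, among them these 3 in the same direction. The background in WT was 30.5% of all probe sets, with 15.7% higher and 14.8% lower. The share called went with brightness in WT. Of 13 members with a mean log2 intensity of 5 or more 9 were called, where 45.2% of such probe sets were, and of 16 dimmer members 4 were called, where the background was 14.2%. The median size of the change regardless of direction was 0.21 for the members and 0.23 for all probe sets in the OE lines, and 0.62 for the members and 0.29 for all probe sets in WT.
The WT counts depended on the arrays. Leaving out WT 0d replicate 1 gave 2 higher and 4 lower genes, with a background of 9.19% and 7.89%, and leaving out WT 5d replicate 2 gave the same numbers, with 8.68% and 8.33%. With WT 5d replicate 1 left out there were 3 higher and 6 lower, with 11.3% and 10.3%. SCPL49 and SCPL16 were among the higher genes and SCPL31, SCPL50, SCPL25 and SCPL42 among the lower ones whichever array was left out. With values under 32 set to 32, 1 gene was higher (SCPL49) and 3 were lower (SCPL25, SCPL42 and SCPL50). The background was then 9.39% and 7.82%. SCPL20, SCPL26, SCPL45 and SCPL46 missed the threshold in this fit. They were above 32 on every array, and their log2 fold changes stayed at 0.62, -0.76, -0.92 and 0.81. At the threshold of the study's methods, an unadjusted p under 0.05 and a fold change above 2 or below 0.5, 1 gene was higher and 0 lower in the OE lines, with a background of 3.87% and 2.43%, and 2 were higher and 5 lower in WT, with 7.38% and 8.1%. The methods name no test for the arrays, so only these limits are the study's and the p-values are from limma. An unadjusted p under 0.05 alone was reached by 7 genes in the OE lines (27.9% of all probe sets) and 14 in WT (39.7%).

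**Figure D2:**
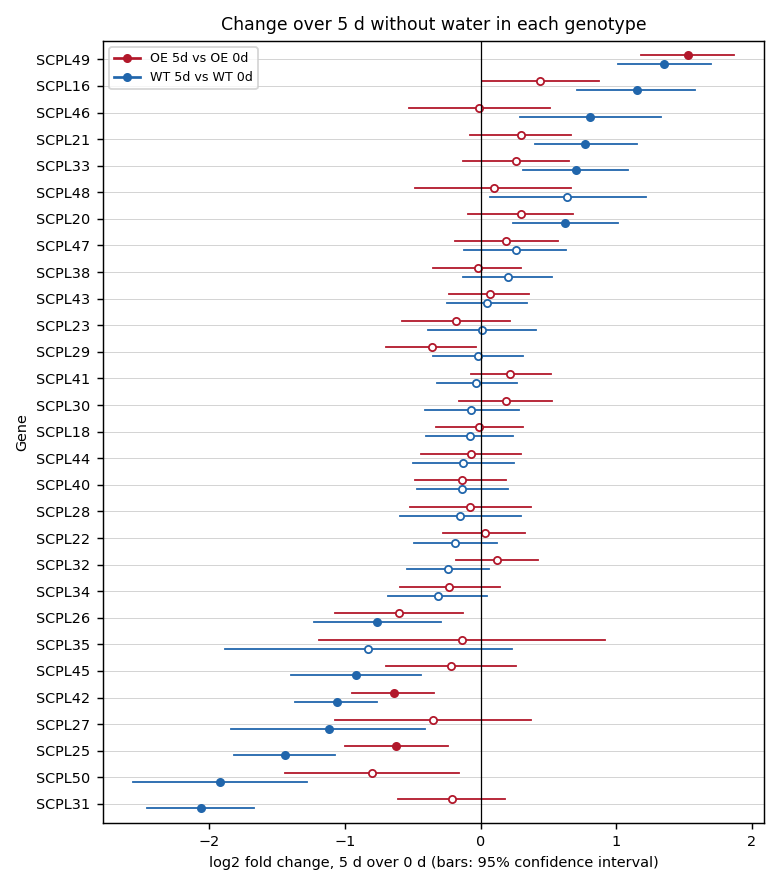
Log2 fold change of each gene between 5 d and 0 d in the OE lines and in WT, with 95% confidence intervals from limma. Filled points passed an adjusted p of 0.05, 3 in the OE lines and 13 in WT, and SCPL49 is the only gene with a filled point above 0 in both.

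SCPL49 (At3g10410) encodes carboxypeptidase Y, a vacuolar enzyme that trims peptides and proteins. It was measured at 258 and 230 in OE 5d, at 245 and 200 in WT 5d, at 87.4 and 81.8 in OE 0d and at 86.6 and 86.5 in WT 0d. All 4 arrays at 5 d lay above all 4 arrays at 0 d. The rise was 1.53 on the log2 scale in the OE lines (standard error 0.15, adjusted p = 0.00204 from limma) and 1.35 in WT (standard error 0.15, adjusted p = 0.000914). The changes of the 2 genotypes differed by 0.17 (OE minus WT, 95% confidence interval -0.32 to 0.66, adjusted p = 0.748), so a difference of up to 0.66 lies within the interval. The rise passed in both genotypes whichever array was left out.
SCPL48 (At3g45010), a close relative of SCPL49, gave 209 and 346 in OE 5d, 311 and 352 in WT 5d, 256 and 248 in OE 0d and 182 and 248 in WT 0d. Both WT 5d arrays were above both WT 0d arrays, and the OE 5d arrays lay on either side of those of OE 0d. Its log2 fold change was 0.10 in the OE lines (adjusted p = 0.865) and 0.64 in WT (adjusted p = 0.0916), and neither passed. The WT value passed with just the 4 WT arrays in the fit (adjusted p = 0.0286) and when either OE 5d array was left out (adjusted p = 0.0147). SCPL47, which resembles these genes in sequence, stayed between 10.2 and 14.6 on all arrays, under 32.

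SCPL16 (At3g12220) belongs to the acyltransferase branch and lies in a run of family genes on chromosome 3 with SCPL17, which is needed for acylated glucosinolates in seeds. It was at 8.00 and 9.12 in OE 5d, 12.0 and 16.9 in WT 5d, 6.57 and 6.01 in OE 0d and 6.74 and 6.14 in WT 0d. The WT 5d arrays were the highest, and the OE 5d arrays lay between them and the arrays of 0 d. Its log2 fold change was 0.44 in the OE lines (adjusted p = 0.167) and 1.15 in WT (standard error 0.19, adjusted p = 0.00302). All its values were under 32, so the size of its rise in WT is uncertain and disappears when such values are set to 32. SCPL18, the other measured member with a number under 20, showed no change past the threshold in any comparison (4.41 to 5.28 over the 8 arrays).

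The other 4 genes that rose in WT were SCPL46, SCPL21, SCPL33 and SCPL20. SCPL46 (At2g33530) was at 163 and 264 in OE 5d, 309 and 357 in WT 5d, 203 and 214 in OE 0d and 175 and 204 in WT 0d. Its WT 5d arrays were above all others, while OE 5d replicate 1 was below all 4 arrays of 0 d. Its log2 fold change was -0.01 in the OE lines (95% confidence interval -0.53 to 0.51, adjusted p = 0.987), and its rise in WT was 0.81 (standard error 0.23, adjusted p = 0.0270).
SCPL20 (At4g12910) was at 63.8 and 78.0 in OE 5d, 65.5 and 66.2 in WT 5d, 55.5 and 59.2 in OE 0d and 38.0 and 48.1 in WT 0d. WT 0d was the lowest group, and the other 3 groups lay closer together. The log2 fold change of SCPL20 was 0.30 in the OE lines (adjusted p = 0.299) and 0.62 in WT (adjusted p = 0.0238).
SCPL21 and SCPL33 were under 32 on all arrays, from 5.48 to 10.9 and from 5.88 to 10.3. For SCPL21 the log2 fold change was 0.30 in the OE lines (adjusted p = 0.288) and 0.77 in WT (adjusted p = 0.00862), and for SCPL33 it was 0.26 in the OE lines (adjusted p = 0.388) and 0.70 in WT (adjusted p = 0.0155), so that both rose in WT. SCPL20, SCPL21, SCPL33 and SCPL46 all missed the threshold in WT when WT 0d replicate 1 or WT 5d replicate 2 was left out, SCPL20 also when WT 5d replicate 1 was, SCPL33 when WT 5d replicate 1 or WT 0d replicate 2 was, and SCPL46 when any of the WT or OE 0d arrays was.

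**Figure D3:**
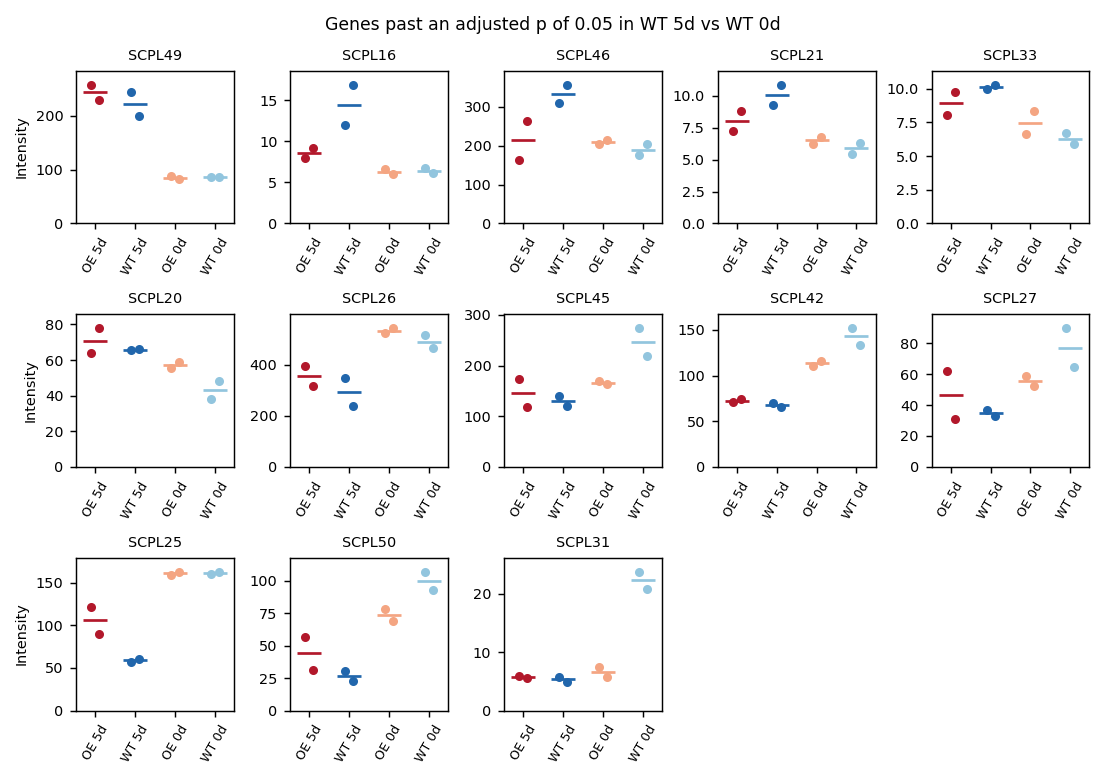
Intensity (linear, from 0) of the 13 genes that changed in WT 5d vs WT 0d, with 1 point per array and a line at the mean of the 2 arrays of a group. SCPL49 is high in both groups of 5 d, SCPL16, SCPL21, SCPL33 and SCPL46 are highest in WT 5d, and SCPL31 stands out in WT 0d alone. Each panel has its own scale, and SCPL16, SCPL21, SCPL31 and SCPL33 are under 32 on all arrays.

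Among the genes that fell, SCPL50 (At1g15000) had values of 56.7 and 31.4 in OE 5d, 30.8 and 22.7 in WT 5d, 78.2 and 69.2 in OE 0d and 107 and 93.2 in WT 0d. The arrays of 5 d were all below those of 0 d in both genotypes. The OE 5d arrays were above the WT 5d arrays, but the nearest values, 31.4 and 30.8, were close together and both under 32. For SCPL50 the log2 fold change was -0.80 in the OE lines (standard error 0.28, adjusted p = 0.100) and -1.92 in WT (standard error 0.28, adjusted p = 0.00193).
SCPL25 (At3g02110) lay at 121 and 90.3 in OE 5d, 57.2 and 60.9 in WT 5d, 159 and 163 in OE 0d and 160 and 162 in WT 0d. The genotypes overlapped at 0 d and did not overlap at 5 d. SCPL25 fell in both genotypes, with a log2 fold change of -0.62 in the OE lines (standard error 0.16, adjusted p = 0.0420) and -1.44 in WT (standard error 0.16, adjusted p = 0.000966). The fall in the OE lines missed the threshold without any 1 of the 8 arrays except OE 5d replicate 1, with an adjusted p of 0.210 without OE 0d replicate 2.
SCPL42 (At5g42240) had intensities of 70.8 and 74.4 in OE 5d, 70.2 and 66.1 in WT 5d, 111 and 116 in OE 0d and 152 and 134 in WT 0d. The 4 arrays of 5 d lay close together, below those of 0 d. Its log2 fold change was -0.64 in the OE lines (standard error 0.13, adjusted p = 0.0186) and -1.06 in WT (standard error 0.13, adjusted p = 0.00128). Without OE 0d replicate 1 or 2 the adjusted p in the OE lines was 0.0996 or 0.138.

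SCPL45 (At1g28110) was at 174 and 118 in OE 5d, 139 and 121 in WT 5d, 170 and 163 in OE 0d and 274 and 219 in WT 0d. WT 0d was above all other arrays, and the OE 5d arrays lay on either side of OE 0d. For SCPL45 the log2 fold change was -0.22 in the OE lines (adjusted p = 0.583) and -0.92 in WT (adjusted p = 0.0121).
SCPL26 (At2g35780) was at 395 and 316 in OE 5d, 349 and 239 in WT 5d, 524 and 544 in OE 0d and 517 and 464 in WT 0d. It was lower at 5 d than at 0 d without overlap in both genotypes. The log2 fold change of -0.60 in the OE lines did not pass (adjusted p = 0.0964), and that of -0.76 in WT did (adjusted p = 0.0239). SCPL27 (At3g07990) had 61.7 and 30.7 in OE 5d, 37.1 and 32.7 in WT 5d, 58.7 and 52.4 in OE 0d and 89.7 and 64.3 in WT 0d. Its OE 5d arrays were 2.01-fold apart and overlapped those of OE 0d. SCPL27 had a log2 fold change of -0.35 in the OE lines (adjusted p = 0.545) and -1.12 in WT (adjusted p = 0.0268). SCPL26, SCPL27 and SCPL45 missed the threshold in WT when WT 0d replicate 1 or WT 5d replicate 2 was left out, SCPL26 also when WT 0d replicate 2 was, and SCPL27 when any array but those of OE 5d was.

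SCPL31 (At1g11080) had the largest fall of the family in WT and the only change of the family that passed in OE 0d vs WT 0d. Its intensity was 5.90 and 5.50 in OE 5d, 5.77 and 4.95 in WT 5d, 7.51 and 5.81 in OE 0d and 23.8 and 20.9 in WT 0d. Only the WT 0d arrays stood apart from the others. The log2 fold change over 5 d was -0.21 in the OE lines (adjusted p = 0.493) and -2.06 in WT (standard error 0.17, adjusted p = 0.000629). It was -1.76 in OE 0d vs WT 0d, with a standard error of 0.17 and an adjusted p of 0.0234. The comparisons that passed share the WT 0d arrays and are not independent of each other. All 8 values were under 32, so the size of the fold changes is uncertain, and with values under 32 set to 32 SCPL31 has no fold change. The call in OE 0d vs WT 0d also depended on which arrays were in the fit. It held with just the 4 arrays compared (adjusted p = 0.00758 from limma) and without either OE 5d array. It was lost without either WT 5d array (log2 fold change -1.76) or without any 1 of the 4 arrays compared (-1.94 to -1.57).
PYK10, which encodes a beta-glucosidase abundant in roots and was the 1 named gene of a list of 5 root markers, was also highest in WT 0d. It lay at 25.2 and 13.6 in OE 5d, 11.3 and 10.4 in WT 5d, 61.7 and 40.5 in OE 0d and 139 and 101 in WT 0d. The log2 fold change of PYK10 was -1.43 in the OE lines (adjusted p = 0.0239) and -3.45 in WT (adjusted p = 0.000650), and its value in OE 0d vs WT 0d was -1.25 (adjusted p = 0.321). Whether root tissue or another difference between the samples had a part in the pattern of SCPL31 was not tested.

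In OE 0d vs WT 0d, 1 of the 29 genes, SCPL31, had changed (3.45%), where the background was 0.0791% of all probe sets, with 0.0528% higher and 0.0264% lower. At the methods' threshold it was again SCPL31 alone, with a background of 0.435% higher and 0.317% lower. Before drought, 4 genes had an unadjusted p under 0.05, which was the case for 8.41% of all probe sets. Apart from SCPL31 these were SCPL45 at -0.56 (95% confidence interval -1.04 to -0.08, adjusted p = 0.521), SCPL20 at 0.42 (0.04 to 0.81, adjusted p = 0.547) and SCPL42 at -0.33 (-0.64 to -0.02, adjusted p = 0.564). For these genes, the OE 0d arrays had values between those of WT 5d and WT 0d, and the comparisons of both with WT 0d share its arrays. SCPL35, the member with the widest spread, had an interval of -1.35 to 0.76 around -0.29 in this comparison.

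In OE 5d vs WT 5d no gene of the family passed the adjusted threshold in limma, with a background of 0.0484% higher and 0% lower, and 0 passed the methods' threshold (1.31% and 0.725%), while 6 had an unadjusted p under 0.05, with 15.9% of all probe sets. SCPL25 was nearest to the threshold, at 121 and 90.3 in OE 5d against 57.2 and 60.9 in WT 5d, a log2 fold change of 0.83 (95% confidence interval 0.45 to 1.20, adjusted p = 0.134). SCPL50 had a log2 fold change of 0.67 (0.03 to 1.31, adjusted p = 0.298). On the lower side were SCPL16 at -0.74 (-1.17 to -0.30, adjusted p = 0.185) and SCPL46 at -0.68 (-1.20 to -0.16, adjusted p = 0.240). SCPL34 at 0.37 and SCPL43 at 0.30 were the other 2, with adjusted p of 0.308 and 0.304, and SCPL43 was under 32 on all arrays. Fitted with just the 4 arrays of 5 d, SCPL25, SCPL16 and SCPL46 had an adjusted p of 0.605 in limma. That of SCPL50 was 0.612.
The arrays of the genotypes at 5 d did not overlap for 12 genes that were higher and 4 that were lower in OE 5d, where the background was 19.6% and 23% of all probe sets. Of the 12, 8 were under 32 on every array: SCPL18, SCPL22, SCPL23, SCPL30, SCPL32, SCPL41, SCPL43 and SCPL44. Their log2 fold changes ran from 0.12 to 0.30, and none passed the test. The median log2 fold change of the 29 genes was 0.13, and that of all probe sets 0.00. Without OE 5d replicate 2, 4 genes of the family were higher (SCPL25, SCPL27, SCPL35 and SCPL50) and 2 lower (SCPL16 and SCPL46) at the adjusted threshold, where the background was 10.2% and 10.3%. With OE 5d replicate 1 left out instead there were 0 and 0, with 0.545% and 0.0484%.

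**Figure D4:**
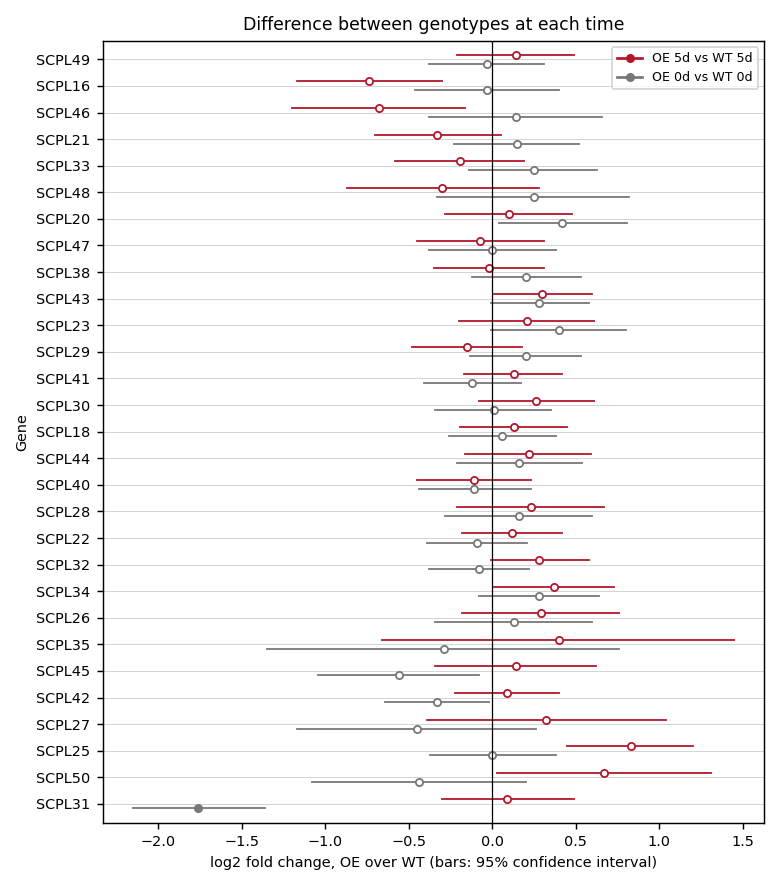
Log2 fold change of each gene between OE and WT at 5 d and at 0 d, with 95% confidence intervals from limma and the genes in the order of their change in WT. The only filled point, past an adjusted p of 0.05, is that of SCPL31 at 0 d.

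The difference between the changes of the genotypes over 5 d was tested as an interaction, and no gene of the family passed in limma, with a background of 0.0308% of all probe sets, all above 0. An unadjusted p under 0.05 was reached by 6 genes (14.8% of all probe sets), and the methods' threshold by SCPL31 and SCPL50 above 0 and none below it (3.12% and 1.81%). SCPL31 was nearest to the threshold, with a difference of 1.85 (OE minus WT, 95% confidence interval 1.29 to 2.40, adjusted p = 0.0857). Its genotypes were -1.76 apart before drought and 0.09 apart after 5 d (95% confidence interval -0.30 to 0.49). SCPL31 thus owed its interaction to the high WT 0d arrays, which also gave its other calls, and the interaction is not independent of them. It passed without OE 5d replicate 1 (adjusted p = 0.0242) or OE 5d replicate 2 (adjusted p = 0.00328), and over all alternatives with an adjusted p it ran from 0.00328 to 1, the value of 1 with values under 32 set to 32. The values of SCPL50 and SCPL25 were 1.12 (0.21 to 2.02, adjusted p = 0.266) and 0.82 (0.29 to 1.35, adjusted p = 0.210), and that of SCPL45 was 0.70 (0.02 to 1.38, adjusted p = 0.325). Below 0 were SCPL46 at -0.82 (-1.56 to -0.09, adjusted p = 0.289) and SCPL16 at -0.70 (-1.31 to -0.09, adjusted p = 0.283). A change that passed in WT and not in the OE lines is therefore not shown to differ between them for any gene of the family with all arrays in the fit. Without OE 5d replicate 2, 6 genes passed above 0 and 2 below 0, with backgrounds of 9.72% and 8.56%.

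**Figure D5:**
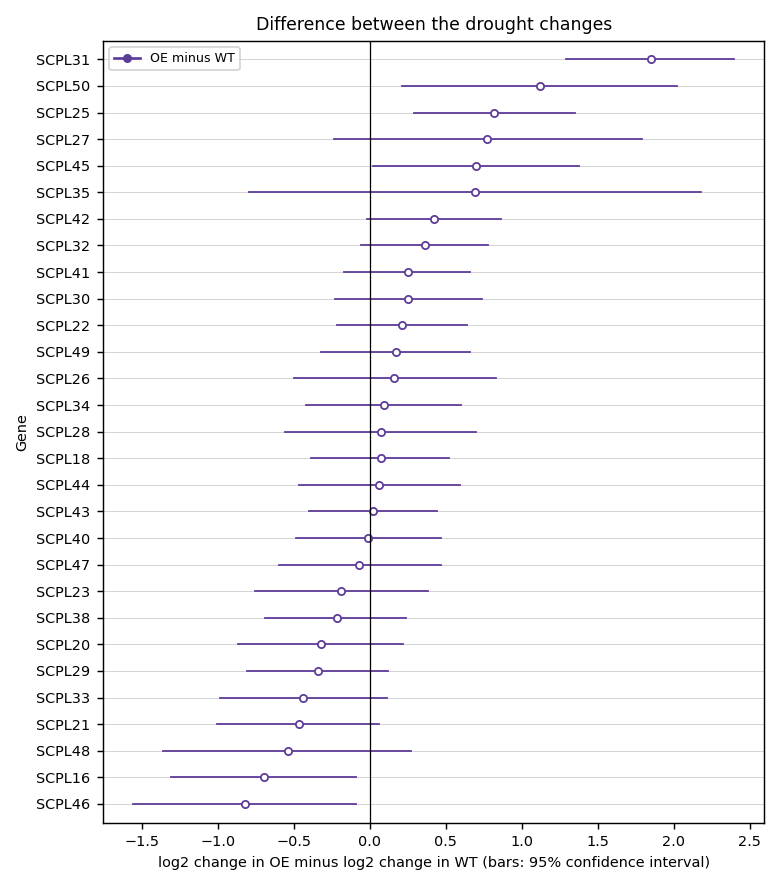
Difference between the log2 changes over 5 d (OE minus WT) of each gene, with 95% confidence intervals from limma. No point is filled, since none passed an adjusted p of 0.05, and the intervals of SCPL31, SCPL50, SCPL25 and SCPL45 lie above 0 and those of SCPL46 and SCPL16 below it.

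The pair of OE 5d arrays differed in how far these genes had moved. Of the 13 genes that changed in WT, 10 had moved in the same direction on OE 5d replicate 1 and 13 on OE 5d replicate 2, each set against the mean of OE 0d. Measured in the direction of the WT change, the median was 0.16 on replicate 1 and 0.54 on replicate 2 on the log2 scale, and the median size of the change in WT was 1.06. The mean change in the OE lines was smaller than that in WT for 12 of the 13, all but SCPL49. These genes were picked by their test in WT, which favours large changes there, so the count is a description. Such counts were not made over all probe sets, so the pattern is not shown to be particular to the family. The OE 5d arrays were more than 2-fold apart for 1294 of all probe sets. SCPL46, SCPL27 and SCPL45 were the 3 genes on which replicate 1 moved against WT, with -0.36, 0.15 and 0.06, against 0.34, -0.85 and -0.50 on replicate 2.
SCPL35 (At5g08260) showed the widest gap of the family. It was at 321 and 98.4 in OE 5d, 156 and 117 in WT 5d, 204 and 188 in OE 0d and 237 and 241 in WT 0d. OE 5d replicate 1 was the highest of all 8 arrays and replicate 2 the lowest, 3.27-fold apart. Its log2 fold change was -0.14 in the OE lines (95% confidence interval -1.19 to 0.92, adjusted p = 0.897) and -0.83 in WT (adjusted p = 0.229). The fit takes 1 spread from all arrays, and the WT value passed with just the 4 WT arrays in it (adjusted p = 0.00759) or when either OE 5d array was left out (adjusted p = 0.00323).

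With all 8 arrays in the fit, the remaining 16 genes of the family passed in no comparison. Of these, SCPL29 and SCPL34, like SCPL35 and SCPL48, were above 32 on every array, from 241 to 318 and from 50.8 to 88.9 over the 8 arrays. SCPL29 had 241 and 252 in OE 5d, 299 and 249 in WT 5d, 317 and 318 in OE 0d and 291 and 263 in WT 0d, with a log2 fold change of -0.36 in the OE lines (adjusted p = 0.141) and -0.02 in WT (95% confidence interval -0.35 to 0.31, adjusted p = 0.944). SCPL22, SCPL38 and SCPL41 stayed under 6 on every array, at 4.20 to 4.93, 4.48 to 5.86 and 4.57 to 5.63, well under the limit of 32.

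Genes that act beside the family were counted from lists of the sinapate ester pathway, which makes the glucose esters used by SCPL acyltransferases, of anthocyanin synthesis and of vacuolar proteases. Fewer than 80% of the genes of each list had a named probe set, so the counts describe the named members. Of all probe sets, 7.06% were called higher and 6.53% lower in the OE lines, and 15.7% higher and 14.8% lower in WT. Of 5 named genes of 21 in the sinapate list, 0 rose in the OE lines, where HCT, an acyltransferase of lignin synthesis, fell by 0.64 (adjusted p = 0.0193), and 3 rose in WT. These were UGT84A3, a glucosyltransferase of hydroxycinnamates, by 1.62 (adjusted p = 0.00171), ALDH2C4, an aldehyde dehydrogenase that makes ferulate and sinapate, by 1.08 (adjusted p = 0.00961), and UGT84A4 by 0.75 (adjusted p = 0.0181). UGT84A4 was close to the limit of 32, at 33.5 and 36.8 in WT 5d and 19.3 and 22.5 in WT 0d.
Of 6 named genes of 20 in the anthocyanin list, the flavonol glycosyltransferase gene UGT78D1 fell in both genotypes, with log2 fold changes of -1.59 in the OE lines (adjusted p = 0.0143) and -1.32 in WT (adjusted p = 0.0127). DFR, which encodes dihydroflavonol reductase, was at -1.48 in the OE lines (adjusted p = 0.277) and fell by 2.74 in WT (adjusted p = 0.0315). Its intensities were 54.8 and 8.65 in OE 5d and 94.9 and 38.9 in OE 0d, so both pairs were wide apart. In WT they were 13.5 and 7.01 at 5 d, both under 32, and 69.6 and 60.2 at 0 d.
Of 5 named vacuolar protease genes of 11, GAMMA-VPE, a vacuolar processing enzyme, rose with SCPL49 in both genotypes. It was at 1630 and 2850 in OE 5d, 3140 and 2880 in WT 5d, 834 and 692 in OE 0d and 853 and 595 in WT 0d, a rise of 1.51 for the OE lines (adjusted p = 0.0126) and of 2.08 for WT (adjusted p = 0.00152). APA1, a vacuolar aspartic protease, rose in WT by 0.73 (adjusted p = 0.0211). Of 2 named genes of 10 in the senescence list, WRKY53, which encodes a regulator of leaf senescence, had log2 fold changes of 2.66 in the OE lines (adjusted p = 0.00415) and 2.41 in WT (adjusted p = 0.00174), while SAG29 did not pass, and the part of senescence in the changes of the family was not tested. Neither between genotypes at 0 d or 5 d nor in the interaction did a gene of these lists pass, and the lists of brassinosteroid reception (11 genes) and of flower and seed (7 genes) had 0 named genes each.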

How the data were processed

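The authors deposited 1 normalized intensity per probe set and array on a linear scale. RNA was amplified, labelled with biotin and hybridized to ATH1 arrays by a commercial service, and how the intensities were summarized and normalized is not given in the sources used here. After removal of 64 control probe sets from the 22810 on the array, values were converted to log2 with a floor of 1, which none reached. All 8 arrays entered 1 fit with 4 group means in limma 3.58.1 (R 4.3.3, lmFit and eBayes, 4 residual degrees of freedom), with Benjamini-Hochberg adjustment over 22746 probe sets, after the fit had been tested on simulated data. Names came from the platform annotation (13513 probe sets with 1 symbol, 503 with several, 8730 not listed) and locus tags from RefSeq TAIR10.1. Genes named with values by rule were SCPL31, those with an adjusted p under 0.05 in any comparison and those with a log2 fold change over 1 in size that missed it, and other genes named with values were chosen after these were seen. Members and gene lists were chosen with earlier results of these data known. Arrays have no depth, and their number limits the precision. Figures were drawn with matplotlib 3.10.9.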

Additional observations from a re-analysis of the deposited data

Results flagged for a closer look

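SCPL32 was looked at again because its arrays moved in opposite directions in the genotypes. It was at 8.95 and 8.34 in OE 5d, 6.85 and 7.35 in WT 5d, 7.96 and 7.94 in OE 0d and 8.70 and 8.10 in WT 0d, so that both OE 5d arrays were above both OE 0d arrays and both WT 5d arrays below both WT 0d arrays. The difference between the changes (OE minus WT) was 0.36 on the log2 scale, with an adjusted p of 0.402 in limma. All its values were under 32, and 4.44% of all probe sets showed such opposite changes without overlap. With 2 arrays per group, no group was large enough to look for single arrays that stand apart.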

How the results depend on the processing

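Under quantile normalization, centring on the array median and a trended robust eBayes, every call of the 47 values followed for single genes and every count of called genes stayed on its side of the threshold or within 1.5 times. With probe sets of a mean log2 of 5 or more only, 13 of the genes remained in the test, with 0 lower in OE 0d vs WT 0d (0.0167% of all probe sets tested) and 3 higher in WT 5d vs WT 0d (25.5%). With values under 32 set to 32 there were 0 lower in OE 0d vs WT 0d (0.158%), 1 lower in OE 5d vs OE 0d (2.83%), and 1 higher (9.39%) and 3 lower (7.82%) in WT 5d vs WT 0d. When just the 4 arrays compared were fitted, 0 were lower in OE 5d vs OE 0d (0.558%). At the threshold of the methods, 0 were lower in OE 5d vs OE 0d (2.43%), 2 were higher in WT 5d vs WT 0d (7.38%), and 2 lay above 0 in the interaction (SCPL31 and SCPL50, with 3.12%).
Leaving out each array in turn gave 0 higher and 0 to 1 lower in OE 0d vs WT 0d, 0 to 4 and 0 to 2 in OE 5d vs WT 5d, 1 to 2 and 0 to 6 in OE 5d vs OE 0d, 2 to 7 and 4 to 8 in WT 5d vs WT 0d, and 0 to 6 and 0 to 2 in the interaction. The shares of all probe sets in these fits were 0% to 0.365% higher and 0% to 0.259% lower in OE 0d vs WT 0d, 0% to 10.2% and 0% to 10.3% in OE 5d vs WT 5d, 0.892% to 11.7% and 0.352% to 13.1% in OE 5d vs OE 0d, 8.68% to 19.3% and 7.89% to 19.1% in WT 5d vs WT 0d, and 0.0044% to 9.72% and 0% to 8.56% in the interaction. The 6 lower in OE 5d vs OE 0d came without OE 5d replicate 1 (SCPL25, SCPL26, SCPL27, SCPL35, SCPL42 and SCPL50), with 13.1% of all probe sets. Over the fits without 1 array, the log2 fold change in OE 5d vs OE 0d ran from -0.85 to 0.15 for SCPL27 and from -0.50 to 0.06 for SCPL45, above 0 when OE 5d replicate 2 was missing. For SCPL46 it ran from -0.36 to 0.34, above 0 when OE 5d replicate 1 (0.34) or OE 0d replicate 2 (0.03) was missing. The interaction of SCPL26 ran from -0.11 to 0.44, below 0 when WT 5d replicate 2 was missing. The cause was not tested.
With the replicate number as a block, SCPL25 missed the threshold in OE 5d vs OE 0d (-0.62, adjusted p = 0.0507) and SCPL50 passed (-0.80, adjusted p = 0.0339), and 7 genes were higher (15.7% of all probe sets) and 7 lower (15.3%) in WT 5d vs WT 0d, SCPL48 among the higher (adjusted p = 0.0461). The block left the other counts as they were. The differences between replicates 1 and 2 correlated between groups at 0.01 to 0.22, and nothing says that a number marks a shared batch. The mean over all probe sets of a gene was not run, since each gene has 1.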

Other observations

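Family genes outside the rule were present on 2 probe sets that the annotation gives to several genes, SCPL36 with SCPL37 and SCPL39 with At3g56540. The first was at 6.52 and 6.86 in OE 5d, 5.65 and 5.78 in WT 5d, 6.12 and 6.11 in OE 0d and 6.13 and 5.01 in WT 0d. The second was at 5.57 and 5.48 in OE 5d, 4.81 and 5.88 in WT 5d, 6.40 and 6.23 in OE 0d and 5.50 and 6.17 in WT 0d. Both were under 32 on all arrays, and their log2 fold changes in the 4 comparisons of groups ran from 0.05 to 0.23 for SCPL36 with SCPL37 and from -0.19 to 0.11 for SCPL39 with At3g56540.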
